A study of Mus musculus with 11 samples.

Results

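Dusp4, Dusp5, Dusp6, Spry1, Spry2, Spry4, Spred1, Spred2, Etv4 and Etv5 encode negative feedback regulators of the RAS, MEK and ERK cascade (the first 8) and ETS family transcription factors induced by that cascade (Etv4 and Etv5). The 10 genes were taken by symbol from the 24143 genes of the count table, with the row of the highest mean count kept for each gene, and they were chosen by their scaled counts, with the difference between the lines first. That difference, under vehicle and under doxycycline, is therefore given for the 10 genes as a description, with no test. The doxycycline comparisons use the same libraries, so their tests share data with the choice of the genes. All 10 were among the 13536 genes that passed the filter on low counts.

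RNA was sequenced from HT22 cells, a mouse hippocampal line immortalized with pSV40, and from HT22[TR/TO-Klf9], a stable derivative carrying the constructs pCDNA6:TR and pCDNA4:TO-Klf9, so that doxycycline releases a Klf9 cassette from the tetracycline repressor. Klf9 is a zinc finger transcription factor, and the study asked which genes it regulates in these cells. Parent vehicle, parent doxycycline and TR/TO-Klf9 vehicle had 3 samples each by their labels and TR/TO-Klf9 doxycycline had 2. All cells were in medium with 10% serum and received 0.5 µg/ml doxycycline or DMSO for 8 hours, starting 24 hours after plating; the stable line was kept in zeocin and blasticidin. Whether the stable line is a single clone, and whether replicates were separate cultures, is not given in the sources used here, and the p-values cover no more than the spread among the samples at hand, which may be technical.

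Growth factor receptors activate RAS, which activates RAF, MEK and the kinases ERK1 and ERK2. Active ERK induces genes that then damp the cascade: dual-specificity phosphatases remove the activating phosphates of ERK and related kinases, Sprouty proteins block signalling between receptor and RAS, and Spred proteins hold back RAS and RAF, in part through neurofibromin. The transcripts of these genes and of Etv4 and Etv5 are widely used as readouts of ERK activity, and fibroblast growth factor signalling in particular induces them.

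Within the TR/TO-Klf9 line, the columns vehicle 3 and doxycycline 1 were identical in all 33815 rows. That library stands under opposite labels, so it was left out of both groups and its values are given only beside the others. The fit used 9 libraries, with 2 of TR/TO-Klf9 vehicle and 1 of TR/TO-Klf9 doxycycline, which was assumed to vary like the others. Total counts over the rows kept, 1 per gene, ranged from 10302431 to 18902784 per library, and over all rows from 16462449 to 30166271. Klf9 stood at 101.44 CPM (counts scaled to library size) in the TR/TO-Klf9 doxycycline library against 46.37 ± 3.28 in TR/TO-Klf9 vehicle (SD, n = 2), 38.54 ± 2.68 in parent vehicle (SD, n = 3) and 38.67 ± 0.79 in parent doxycycline (SD, n = 3). The library under both labels read 45.86 CPM for Klf9, within the range of the TR/TO-Klf9 vehicle libraries; counts of the cassette and of the cells' own gene cannot be told apart. Of 11 neuron markers 8 were under 1 CPM in every library, among them Rbfox3, Map2 and Syt1, and the neuron list summed to 33.73 to 34.42 CPM in parent vehicle, 32.08 to 37.97 in parent doxycycline, 17.15 to 21.16 in TR/TO-Klf9 vehicle and 12.4 in TR/TO-Klf9 doxycycline. The list of 10 fibroblast and mesenchymal markers summed to 3901.5 to 5151.5 CPM in parent and 4843.6 to 5112.4 in TR/TO-Klf9 libraries, and most neuron-defining transcripts were near 0 in both lines. Single markers moved apart within these sums: Dcn stood at 13.09 to 15.04 CPM in parent and 0 to 0.15 in TR/TO-Klf9 libraries, Acta2 at 34.97 to 41.80 and 123.54 to 144.87, and Postn at 10.10 to 11.56 and 26.71 to 33.84. The neuron sum was mostly Tubb3, at 29.61 to 35.24 CPM in parent and 10.72 to 14.06 in TR/TO-Klf9 libraries. Elavl3 was at 1.19 to 1.94 CPM in parent libraries, 3.20 and 2.75 in TR/TO-Klf9 vehicle and 1.07 in TR/TO-Klf9 doxycycline. The microglia list summed to 1.48 to 2.70 CPM in parent and 12.4 to 14.5 CPM in TR/TO-Klf9 libraries, with Cx3cr1, P2ry12, Aif1 and Ptprc under 1 CPM throughout; the part of the marker lists in the results was not tested. Fewer cells of a type and less RNA per cell cannot be told apart in these bulk samples.

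RefSeq start windows of 300 bases, from 250 before to 50 after a gene's start on GRCm38.p6, were found for 7 of the 10 genes. Those of Dusp5, Dusp6, Spry2, Spred2 and Etv5 are shown because these genes stood lower in the TR/TO-Klf9 line under both treatments. Capitals mark 4 motifs searched on both strands: the ETS core CGGAAG, the GC box GGGCGG, the CRE core TGACGT and the CArG box, with the reverse complement in capitals where the motif lies on the other strand, and overlapping motifs are joined.

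Dusp6, chr10:99262981-99263280, plus strand: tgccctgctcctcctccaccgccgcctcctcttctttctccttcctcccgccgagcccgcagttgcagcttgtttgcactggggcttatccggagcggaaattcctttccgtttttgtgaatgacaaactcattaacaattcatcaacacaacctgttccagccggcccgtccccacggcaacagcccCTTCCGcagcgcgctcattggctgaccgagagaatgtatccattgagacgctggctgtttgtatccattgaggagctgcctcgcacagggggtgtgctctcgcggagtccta
Dusp5, chr19:53528895-53529194, plus strand: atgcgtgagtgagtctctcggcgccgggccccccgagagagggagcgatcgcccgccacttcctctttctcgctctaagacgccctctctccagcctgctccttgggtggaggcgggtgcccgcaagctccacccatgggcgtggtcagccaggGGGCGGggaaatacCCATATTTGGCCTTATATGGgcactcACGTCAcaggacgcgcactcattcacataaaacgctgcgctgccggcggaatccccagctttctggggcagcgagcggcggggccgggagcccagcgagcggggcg
Spry2, chr14:105896770-105897069, minus strand: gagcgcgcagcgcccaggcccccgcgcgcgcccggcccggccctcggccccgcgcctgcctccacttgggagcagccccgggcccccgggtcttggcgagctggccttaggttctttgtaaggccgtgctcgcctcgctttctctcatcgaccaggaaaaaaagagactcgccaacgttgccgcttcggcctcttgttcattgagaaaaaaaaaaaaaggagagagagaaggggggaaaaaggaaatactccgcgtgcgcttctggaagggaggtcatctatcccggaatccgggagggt
Spred2, chr11:19924192-19924491, plus strand: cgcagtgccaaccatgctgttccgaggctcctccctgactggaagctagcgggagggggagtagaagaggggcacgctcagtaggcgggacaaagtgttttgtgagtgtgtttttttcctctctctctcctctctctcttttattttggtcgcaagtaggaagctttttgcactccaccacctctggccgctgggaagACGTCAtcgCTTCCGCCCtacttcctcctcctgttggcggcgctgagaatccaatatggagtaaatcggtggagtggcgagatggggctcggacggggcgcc
Etv5, chr16:22439521-22439820, minus strand (1 of 2 listed starts): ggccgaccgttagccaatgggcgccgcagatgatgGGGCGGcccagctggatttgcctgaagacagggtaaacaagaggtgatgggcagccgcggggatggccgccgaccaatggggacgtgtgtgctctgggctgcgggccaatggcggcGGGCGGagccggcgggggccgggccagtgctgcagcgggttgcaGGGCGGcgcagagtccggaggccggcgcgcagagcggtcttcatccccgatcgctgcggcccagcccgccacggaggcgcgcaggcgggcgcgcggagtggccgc

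The Dusp6 window held 1 ETS core, the sequence read by Etv4, Etv5 and their relatives. The Dusp5 window held 2 adjacent CArG boxes, the serum response factor sequence, with a GC box, a CRE core and 2 matches to CCACCC, a further motif that GC box factors can read and that is not in capitals. In the Spred2 window an ETS core, an overlapping GC box and a CRE core lay together, the Etv5 window held 3 GC boxes, and the Spry2 window held none of these letters. Of all 27025 RefSeq windows of this length, 17.2% held the ETS core, 35.9% the GC box, 30.9% CCACCC, 7.64% the CRE core and 1.57% the CArG box. Spred1 and Spry1, whose lines overlapped, also had windows, which are not shown. That of Spred1 held 2 ETS cores and 3 GC boxes, and that of Spry1 held 1 GC box. The motifs were thus not particular to the genes that stood lower. These matches describe the letters in the windows and do not show binding.

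Dusp6, the cytoplasmic phosphatase selective for ERK, showed the widest gap between the lines among the 10. It read 79.7, 82.6 and 79.7 CPM in parent vehicle, 76.0, 78.4 and 82.7 CPM in parent doxycycline, 32.9 and 37.7 CPM in TR/TO-Klf9 vehicle and 37.7 CPM in TR/TO-Klf9 doxycycline. Every TR/TO-Klf9 library lay far below every parent library, and the library under both labels, at 33.6 CPM, lay among the TR/TO-Klf9 vehicle libraries. The fitted line difference was 2.28-fold lower under vehicle. Under doxycycline it was 2.10-fold lower (log2 -1.07 ± 0.09 SE). Within each line, doxycycline left Dusp6 with log2 differences of 0.09 (95% interval -0.11 to 0.29) in TR/TO-Klf9 and -0.03 (-0.14 to 0.09) in parent, and neither passed the test.

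Dusp5, a nuclear phosphatase that acts on ERK, gave 23.8, 24.6 and 25.2 CPM in parent vehicle and 22.4, 26.4 and 25.6 CPM in parent doxycycline. It gave 17.7 and 15.1 CPM in TR/TO-Klf9 vehicle, 12.3 CPM in TR/TO-Klf9 doxycycline and 13.6 CPM in the library under both labels. The lines did not overlap, and the doxycycline library was the lowest. Under vehicle the gene stood 1.495-fold lower in TR/TO-Klf9, and under doxycycline 2.01-fold lower (log2 -1.01 ± 0.14 SE). The doxycycline difference in TR/TO-Klf9, log2 -0.41 ± 0.15 SE, did not pass the test (adjusted p = 0.0664); without TR/TO-Klf9 vehicle 2 it was -0.50 and passed (adjusted p = 0.0199).

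Dusp4, a nuclear phosphatase of ERK, JNK and p38, was not lower in TR/TO-Klf9 vehicle, and its lines overlapped over both treatments. Its CPM were 51.3, 51.0 and 53.4 in parent vehicle, 48.1, 49.9 and 54.1 in parent doxycycline, 73.2 and 53.7 in TR/TO-Klf9 vehicle and 44.1 in TR/TO-Klf9 doxycycline. The first of the TR/TO-Klf9 vehicle libraries was far above every other library, the second lay at the top of the parent range, and the library under both labels, at 48.6 CPM, lay within the parent range. Dusp4 fell after doxycycline in TR/TO-Klf9, 1.44-fold (log2 -0.52 ± 0.14 SE, adjusted p = 0.0230). Its line difference was log2 0.29 under vehicle and -0.20 ± 0.14 SE under doxycycline. The fall after doxycycline rested on few libraries, and without TR/TO-Klf9 vehicle 1 it was smaller, at -0.28. The call was lost without parent vehicle 2 (-0.50, adjusted p = 0.0505). It was also lost with the library under both labels placed in TR/TO-Klf9 vehicle (-0.39, adjusted p = 0.171) or in TR/TO-Klf9 doxycycline (-0.44, adjusted p = 0.209).

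**Figure D1:**
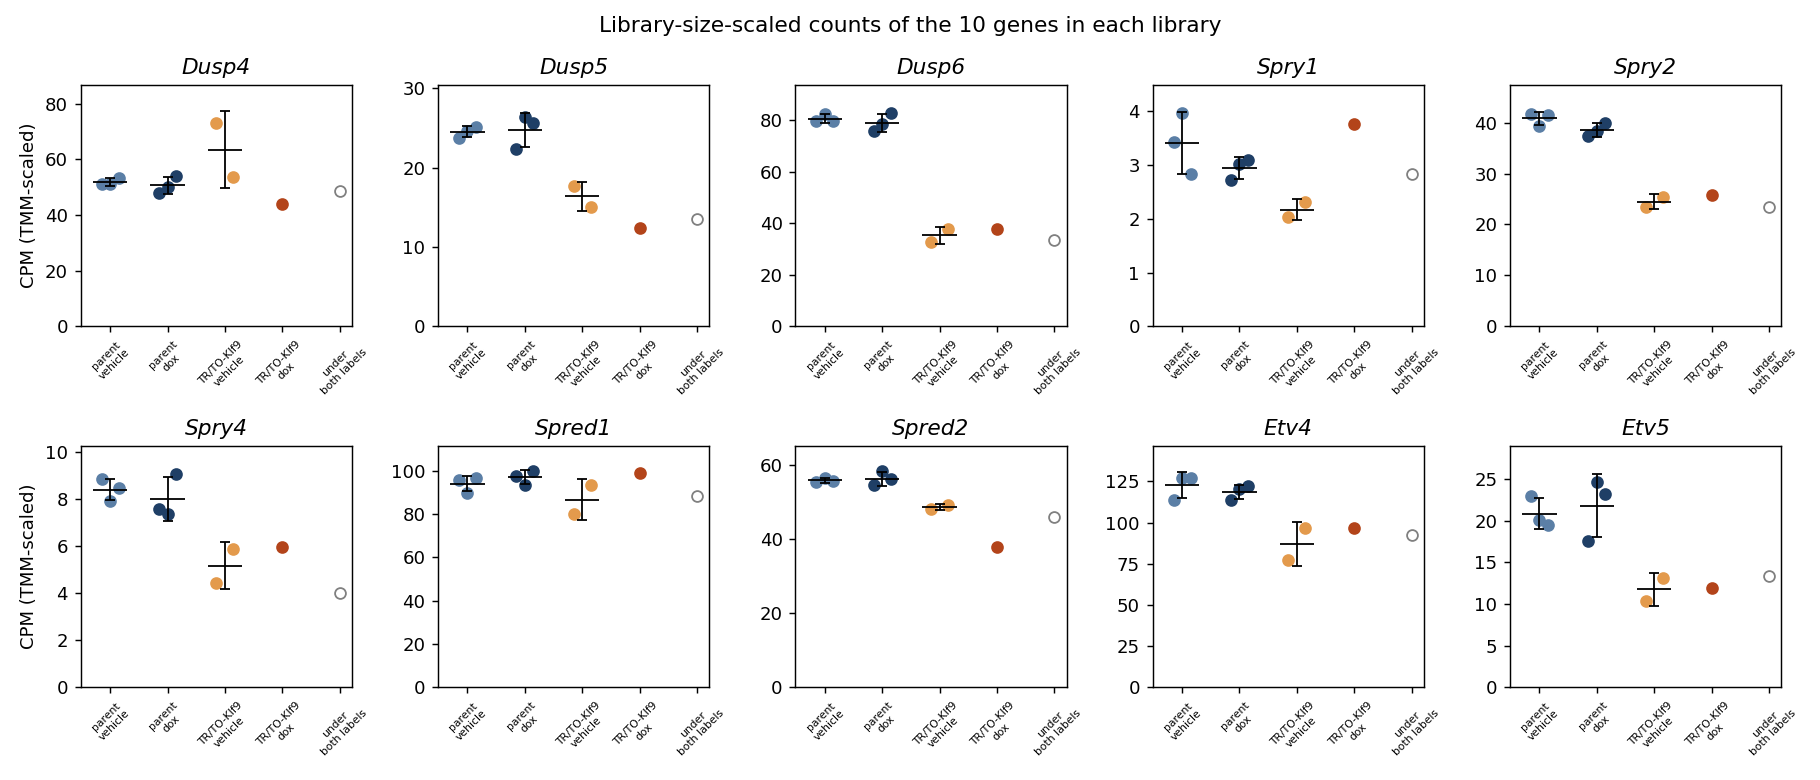
Scaled counts (CPM, vertical axes from 0) of the 10 genes in each library. Points are libraries, horizontal lines and bars are the group mean and SD where a group has more than 1 library, and hollow points are the library that stands under both labels; Dusp6 shows the clearest separation, with TR/TO-Klf9 libraries at 32.9 to 37.7 CPM and parent libraries at 76.0 to 82.7 CPM.

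Among the Sprouty genes, Spry2 was the most abundant per transcript length. Spry2 gave 41.7, 39.3 and 41.4 CPM in parent vehicle and 37.3, 38.4 and 39.9 CPM in parent doxycycline, against 23.5 and 25.5 CPM in TR/TO-Klf9 vehicle and 25.8 CPM in TR/TO-Klf9 doxycycline. The lines did not overlap, and the TR/TO-Klf9 libraries agreed closely whatever the treatment. Spry2 stood 1.67-fold lower in TR/TO-Klf9 under vehicle and 1.49-fold lower under doxycycline (log2 -0.58 ± 0.09 SE). Its doxycycline difference in TR/TO-Klf9 was log2 0.07 (95% interval -0.14 to 0.29).

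Spry4, the Sprouty induced most readily by fibroblast growth factor in many cells, was scarce, at 7.92 to 8.83 CPM in parent vehicle and 7.38 to 9.08 CPM in parent doxycycline. It read 4.45 and 5.87 CPM in TR/TO-Klf9 vehicle and 5.98 CPM in TR/TO-Klf9 doxycycline, so the lines again did not overlap, and the library under both labels was lowest at 4.01 CPM. The line difference was 1.63-fold under vehicle, and under doxycycline log2 -0.42 ± 0.20 SE. Placing the library under both labels in TR/TO-Klf9 doxycycline gave -0.67.

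Spry1, the rarest of the 10, behaved otherwise in the doxycycline library. It read 3.43, 3.96 and 2.82 CPM in parent vehicle, 2.71, 3.01 and 3.09 CPM in parent doxycycline, 2.03 and 2.30 CPM in TR/TO-Klf9 vehicle and 3.75 CPM in TR/TO-Klf9 doxycycline. The doxycycline library thus lay within the parent vehicle range while the TR/TO-Klf9 vehicle libraries lay below it, and the library under both labels gave 2.82 CPM. The doxycycline difference in TR/TO-Klf9, log2 0.79 ± 0.28 SE, did not pass the test (adjusted p = 0.0617); without TR/TO-Klf9 vehicle 2 it was 0.90 (adjusted p = 0.046) and with a stricter filter on low counts 0.80 (adjusted p = 0.049). These values rest on 26 to 66 counts per library.

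The 2 Spred genes, whose products restrain RAS and RAF at the membrane, differed from each other. Spred2 gave 55.2, 56.5 and 55.7 CPM in parent vehicle, 54.4, 58.2 and 56.1 CPM in parent doxycycline, 48.1 and 49.2 CPM in TR/TO-Klf9 vehicle and 37.9 CPM in TR/TO-Klf9 doxycycline. The 3 levels of TR/TO-Klf9 lay below all parent libraries, the doxycycline library lay apart below both vehicle libraries, and the library under both labels stood between them at 45.8 CPM. Spred2 fell after doxycycline in TR/TO-Klf9, 1.28-fold (log2 -0.36 ± 0.08 SE, adjusted p = 0.00731), and this response differed from that of the parent line (log2 difference -0.37 ± 0.10 SE, adjusted p = 0.0249). Against parent cells it stood 1.15-fold lower under vehicle and 1.48-fold lower under doxycycline (log2 -0.57 ± 0.08 SE). The call of the fall was lost when the library under both labels counted as TR/TO-Klf9 doxycycline (-0.21, adjusted p = 0.279), but not when it counted as TR/TO-Klf9 vehicle. The difference from the parent response was lost without parent vehicle 3 (-0.35, adjusted p = 0.0715), parent doxycycline 1 (-0.37, 0.0567), 2 (-0.33, 0.0891) or 3 (-0.35, 0.0754).

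Spred1 overlapped between the lines. Its CPM were 89.9 to 96.6 in parent vehicle, 93.5 to 99.8 in parent doxycycline, 79.8 and 93.2 in TR/TO-Klf9 vehicle and 99.1 in TR/TO-Klf9 doxycycline, and TR/TO-Klf9 vehicle 1 was the lowest library. The line difference under doxycycline was log2 0.03 ± 0.08 SE. The doxycycline difference in TR/TO-Klf9 was log2 0.19 (95% interval 0.02 to 0.37, adjusted p = 0.123). Removing the trend of counts on transcript length, of which Spred1 has the longest of the 10 at 6016 nucleotides, gave 0.36 (adjusted p = 0.00773) for the latter and a line difference under doxycycline of 0.22, and leaving out TR/TO-Klf9 vehicle 2 gave 0.33 (adjusted p = 0.00146).

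Etv4 and Etv5 bind the ETS core and are among the transcripts that follow ERK activity most closely. Etv4, the most abundant of the 10 per length, gave 113.6, 127.0 and 127.4 CPM in parent vehicle, 113.7, 120.2 and 122.2 CPM in parent doxycycline, 77.5 and 96.7 CPM in TR/TO-Klf9 vehicle and 96.9 CPM in TR/TO-Klf9 doxycycline. All TR/TO-Klf9 libraries lay below all parent libraries, and TR/TO-Klf9 vehicle 1 was the lowest. It stood 1.40-fold lower in TR/TO-Klf9 under vehicle and 1.23-fold lower under doxycycline (log2 -0.29 ± 0.10 SE). Its doxycycline difference in TR/TO-Klf9, log2 0.15 ± 0.11 SE, did not pass the test (adjusted p = 0.356), but without TR/TO-Klf9 vehicle 2 it was 0.34 (adjusted p = 0.00356).

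Etv5 gave 23.0, 20.1 and 19.6 CPM in parent vehicle, 17.6, 24.7 and 23.3 CPM in parent doxycycline, 10.4 and 13.2 CPM in TR/TO-Klf9 vehicle and 11.95 CPM in TR/TO-Klf9 doxycycline. Again every TR/TO-Klf9 library was lower than every parent library, at 13.4 CPM also the library under both labels. The gene stood 1.79-fold lower under vehicle and 1.83-fold lower under doxycycline (log2 -0.87 ± 0.19 SE). Doxycycline in TR/TO-Klf9 gave log2 0.02 (95% interval -0.42 to 0.46).

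**Figure D2:**
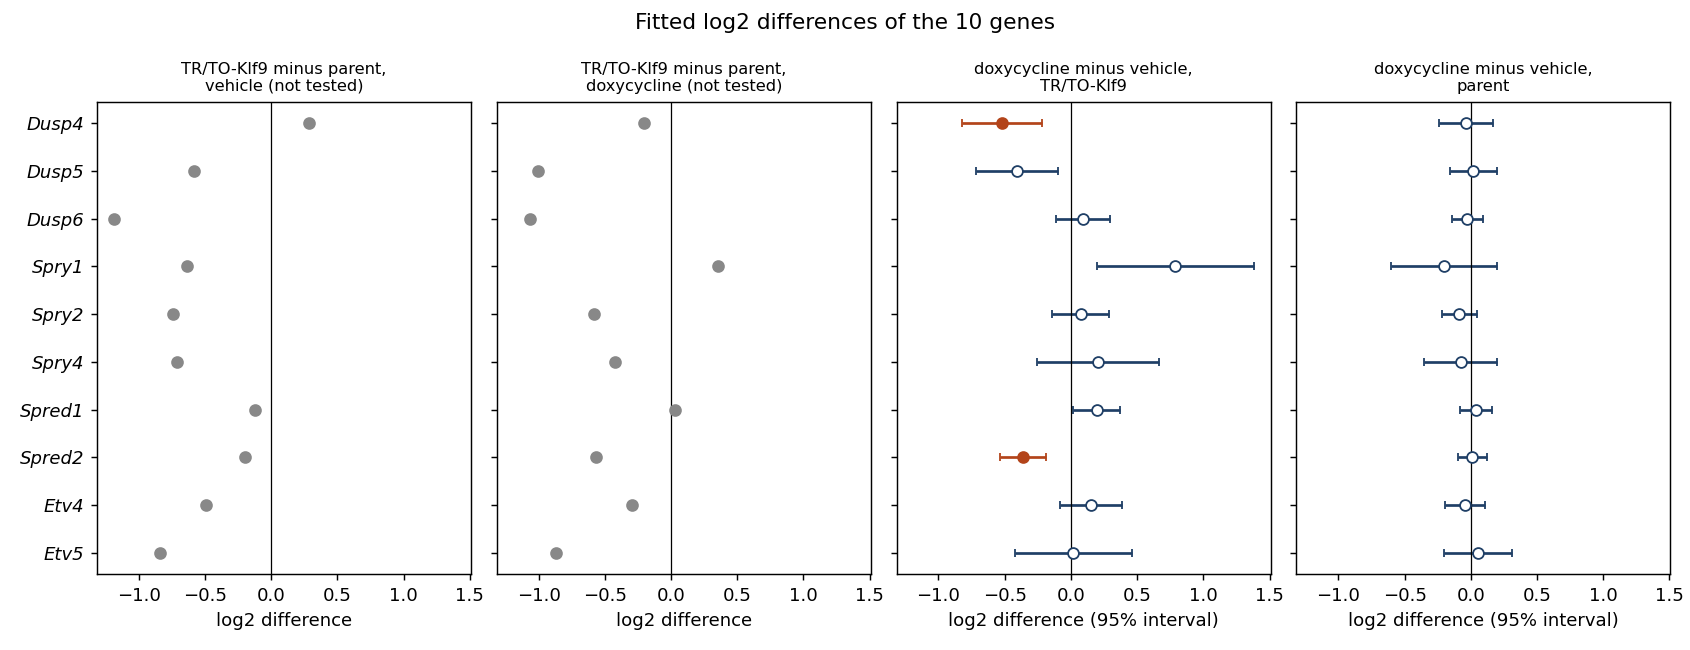
Fitted log2 differences of the 10 genes in 4 comparisons. Horizontal bars are 95% intervals, red points passed an adjusted p of 0.05 and open points did not; the grey points of the line differences, which chose the genes, carry no test. The line differences under doxycycline ran from -1.07 for Dusp6 to 0.35 for Spry1, and the 10 parent differences ran from -0.20 to 0.05.

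Counted over the 10 genes, the TR/TO-Klf9 vehicle libraries lay below the parent vehicle libraries without overlap in 8 (27.3% of all tested genes did so) and above them in 1, Dusp4 (27.9% of all tested genes did so), and 38.9% of all tested genes passed the test; since the line difference chose the genes, nothing is read from the counts. Their median log2 line difference under vehicle was -0.61, against 0.01 over all tested genes. Over all treatments, 7 lay with every TR/TO-Klf9 library below every parent library, as 19.6% of all tested genes did, and none with every one above, as 18.6% did; Dusp4, Spry1 and Spred1 did not. Under doxycycline the median of the 10 was -0.50 against 0 over all tested genes, of which 42.7% passed the test. These counts and medians describe the choice and support nothing further.

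For doxycycline within TR/TO-Klf9, 2 of the 10 passed the test, both lower (Dusp4 and Spred2), where 17.8% of all tested genes passed and 11.4% passed with a lower level. The median over the 10 was 0.08, against -0.01 over all tested genes. Without TR/TO-Klf9 vehicle 2, which leaves 1 vehicle library, the log2 differences were 0.90 for Spry1, 0.34 for Etv4, 0.33 for Spred1 and -0.50 for Dusp5. With only the TR/TO-Klf9 libraries in the fit neither Dusp4 (adjusted p = 0.287) nor Spred2 (adjusted p = 0.288) passed. In the parent line 0 of the 10 passed with edgeR, as did 0% of all tested genes. Before adjustment, p was under 0.05 for 293 genes with edgeR, 40 with DESeq2 and 305 with limma-voom. The test of the difference of the doxycycline responses called 1 of the 10, Spred2, against 9.67% of all tested genes (2.75% higher and 6.92% lower). With DESeq2 that test called none (Spred2 adjusted p = 0.118). Without TR/TO-Klf9 vehicle 2 the log2 difference of responses was 1.1 for Spry1, 0.38 for Etv4, 0.29 for Spred1, -0.68 for Dusp4 and -0.52 for Dusp5.

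**Figure D3:**
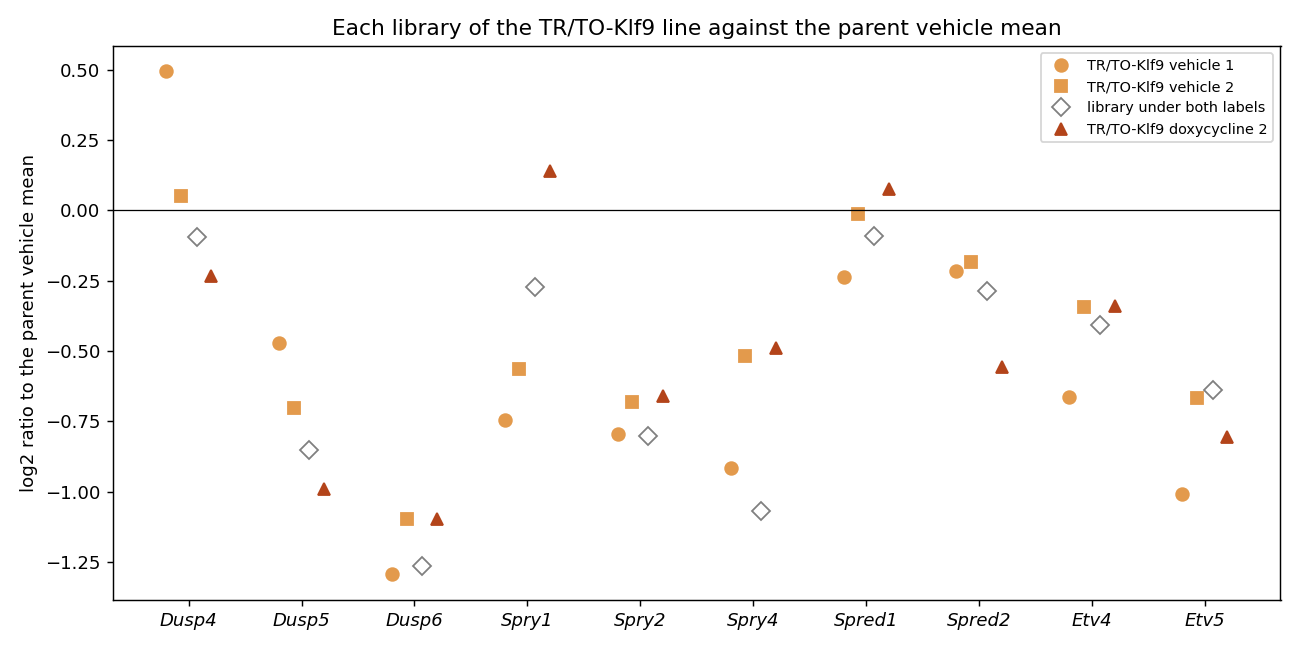
Log2 ratio of each TR/TO-Klf9 library to the parent vehicle mean, for each of the 10 genes. Circles and squares are the vehicle libraries, triangles the doxycycline library and hollow diamonds the library under both labels; Dusp6 is lowest, between -1.29 and -1.10, and Dusp4 spreads from 0.50 to -0.23.

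The 2 TR/TO-Klf9 vehicle libraries differed from each other for several of the genes, which bears on every comparison that uses them. Vehicle 1 minus vehicle 2 was log2 0.45 for Dusp4, -0.34 for Etv5 and -0.32 for Etv4, against a median absolute difference of 0.11 over genes above 8 CPM. For Spry4 it was -0.40, but Spry4 averaged under 8 CPM and rests there on 57 and 79 counts. Spred2 and Spry2 were the closest, at -0.03 and -0.12. Over all genes, the chi-square per degree of freedom between these libraries was 7.60, against 0.953 to 1.027 among the parent doxycycline libraries and 1.501 to 5.763 among the parent vehicle libraries. Of the 5 residual degrees of freedom 4 came from the parent line, so the p-values of TR/TO-Klf9 comparisons rest largely on the parent spread. The library under both labels lay between these libraries for 3 of the 10, Dusp6, Spred1 and Etv4.

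Per kilobase of transcript, Etv4 led in every group. In parent vehicle it stood at 52.51 CPM per kb, followed by Dusp6 at 28.85, then Spred2, Spry2 and Dusp4 at 19.57, 19.56 and 18.94 with overlapping ranges. Below these came Spred1 at 15.63, Dusp5 at 9.91, Etv5 at 5.25, Spry4 at 1.77 and Spry1 at 1.37 CPM per kb, none overlapping the next. In TR/TO-Klf9 vehicle the order after Etv4 (37.28 CPM per kb) became Dusp4 at 23.15 and Spred2 at 17.05, and Dusp6, at 12.63, dropped to the fifth place with a range overlapping those of Spred1 and Spry2.

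**Figure D4:**
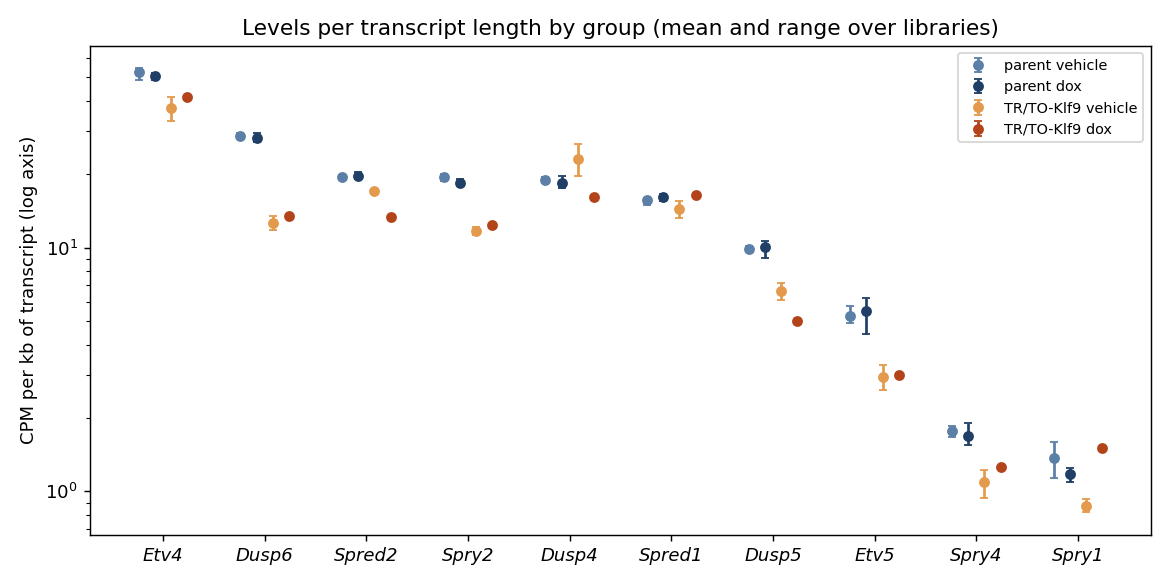
CPM per kilobase of transcript on a log axis, for the 10 genes in the order of parent vehicle. Points are group means and bars the range over libraries, with no bar for the single TR/TO-Klf9 doxycycline library; Etv4 leads in all groups, and Dusp6 moves from 28.85 in parent vehicle to 12.63 in TR/TO-Klf9 vehicle.

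For each of the 10, the gene most like it in log2 CPM over the 9 libraries, by Pearson correlation, is given as a description; these 9 points share 2 lines. The values were 0.999 for Spry2 with Adamtsl5, 0.998 for Dusp6 with Ptgis, 0.996 for Dusp5 with Gm13031, 0.993 for Spred2 with Stard4, 0.991 for Spry4 with St6gal1 and for Etv4 with Elovl6, and 0.988 for Etv5 with Fst. They were 0.977 for Spred1 with Gm20319, 0.975 for Dusp4 with Bri3 and 0.941 for Spry1 with Sco2.

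Other genes of the pathway were taken from 8 lists with 134 genes, of which 114 were tested. Under doxycycline 18 stood higher and 48 lower in TR/TO-Klf9 than in parent, where 19.4% of all tested genes stood higher and 23.3% lower; the median log2 was -0.17. Under vehicle 19 stood higher and 33 lower, where 18.8% and 20.1% of all tested genes did, and the median was -0.01. The values named for single genes below are those under doxycycline, which rest on 1 TR/TO-Klf9 library. Among 11 receptors, 10 were lower and 1 higher under doxycycline, and 6 lower and 1 higher under vehicle. Erbb3, which pairs with other ErbB receptors, stood at 9.23 ± 0.52 CPM in parent doxycycline (SD, n = 3) and 0.54 CPM in TR/TO-Klf9 doxycycline (log2 -4.08 ± 0.30 SE, adjusted p = 3.18e-08), and Egfr, the epidermal growth factor receptor, at 9.99 ± 1.94 and 1.15 CPM (-3.11 ± 0.31 SE, adjusted p = 8.72e-07). Pdgfra, a receptor for platelet-derived growth factors, went from 73.4 ± 1.97 to 35.0 CPM (-1.07 ± 0.09 SE, adjusted p = 1.05e-07). The 1 receptor that was higher, Pdgfrb, was named after its values were seen (log2 0.90 ± 0.10 SE, adjusted p = 3.31e-06).

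Ligands stood apart in both directions, 3 higher and 7 lower of 17 under either treatment. Pdgfb, a platelet-derived growth factor chain, had 6 and 2 counts in TR/TO-Klf9 vehicle and 0 in TR/TO-Klf9 doxycycline, and so was at least 59.9-fold lower there than the parent doxycycline mean of 13.76 CPM, taking the floor of 3 counts in that library. Igf1, an insulin-like growth factor, was higher, at 22.3 CPM against 2.72 ± 1.05 (log2 3.04 ± 0.30 SE, adjusted p = 6.01e-06).

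Other phosphatases and relatives were split, 3 higher and 3 lower of 8 under doxycycline and 3 higher and 2 lower under vehicle. Dusp1, an immediate early phosphatase for p38, JNK and ERK, was higher, at 28.9 CPM against 13.1 ± 0.23 in parent doxycycline (log2 1.14 ± 0.12 SE, adjusted p = 1.87e-06). Among ERK-induced transcripts 3 were higher and 8 lower of 19 under doxycycline, and 1 higher and 6 lower under vehicle. Hmga2, an architectural chromatin protein, was lower (-1.39 ± 0.09 SE, adjusted p = 1.16e-08), as was the AP-1 subunit Fosl1 (-0.65 ± 0.09 SE, adjusted p = 3.38e-05), while the zinc finger factor Egr3 was higher (0.64 ± 0.18 SE, adjusted p = 0.00979). Of the 13 other inhibitors 2 were higher and 5 lower under doxycycline, but 3 higher and 2 lower under vehicle (median log2 0.04). Errfi1, an inhibitor of ErbB kinases, was lower under doxycycline at 65.4 CPM against 104.7 ± 1.92 (-0.68 ± 0.07 SE, adjusted p = 7.22e-07). Adaptors and kinases gave 4 higher and 8 lower of 23 under doxycycline and 4 higher and 5 lower under vehicle, with the adaptor Frs2 lower under doxycycline (-0.88 ± 0.06 SE, adjusted p = 1.72e-08). Other ETS factors gave 2 higher and 5 lower of 12 under doxycycline and 3 higher and 3 lower under vehicle. The p38 and JNK kinases gave 0 higher and 2 lower of 11 under doxycycline and 1 higher and 2 lower under vehicle.

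**Figure D5:**
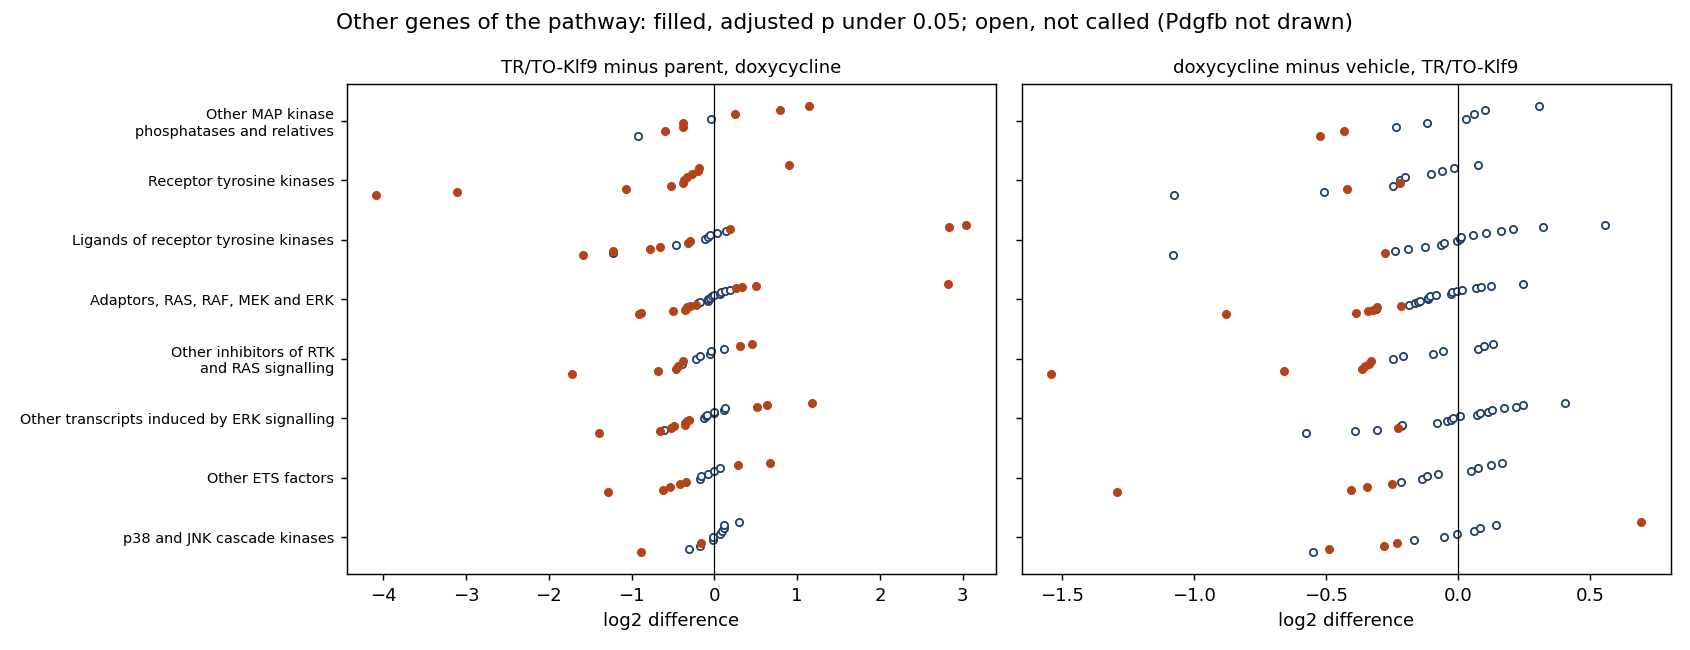
Log2 differences of the other tested pathway genes, 1 row per list. Filled points passed an adjusted p of 0.05 and open points did not, and Pdgfb is not drawn because its count was 0 in the TR/TO-Klf9 doxycycline library; in the left panel 10 of 11 receptors lie below 0, and in the right panel most filled points lie below 0 with Map2k6 at 0.69 the exception.

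Within TR/TO-Klf9, doxycycline called 1 of these 114 genes higher and 25 lower, where 6.44% of all tested genes were higher and 11.4% lower. Cbl, a ubiquitin ligase that turns receptors over, fell from 42.6 ± 8.60 CPM (SD, n = 2) to 14.6 CPM (log2 -1.54 ± 0.15 SE, adjusted p = 1.14e-05). Elk4, an ETS factor that works with serum response factor, fell from 62.0 ± 4.02 to 25.3 CPM (-1.30 ± 0.10 SE, adjusted p = 1.02e-06), and the RAF scaffold Ksr1 from 22.2 ± 4.73 to 12.03 CPM (-0.88 ± 0.16 SE, adjusted p = 0.00185). Spred3, the Spred family relative, fell from 25.6 ± 2.05 to 17.8 CPM (-0.53 ± 0.13 SE, adjusted p = 0.00933), and Map2k6, a p38 activator, rose from 12.2 ± 0.10 to 19.7 CPM (0.69 ± 0.13 SE, adjusted p = 0.00188). In the parent line none of the 114 passed edgeR's test. Each of these 5 calls was lost when the library under both labels was counted as TR/TO-Klf9 doxycycline. All 5 were kept when it was counted as TR/TO-Klf9 vehicle. With only the TR/TO-Klf9 libraries in the fit, Ksr1, Spred3 and Map2k6 also lost their calls, unlike Cbl and Elk4.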

How the data were processed

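RNA-seq of 11 samples was examined. Per the values of the deposited table, its counts are whole reads per RefSeq transcript with no normalization; columns of no sample numbered 0. The submitters' processing notes list the tools CASAVA, FastQC, Bowtie and DESeq and the build mm8; how reads were counted, with which strand setting, annotation or versions, is not given in the sources. Symbols came from a RefSeq gene table: 32500 of 32923 accessions matched, and the other 423, with 1.166% to 1.235% of the counts, were tested under their own identifiers.

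Each gene was represented by its most abundant row. Counts were filtered by filterByExpr, scaled by TMM and fitted with edgeR 4.0.16 on 4 group means (quasi-likelihood, robust) in R 4.3.3. P-values were adjusted by Benjamini-Hochberg over 13536 genes, with a threshold of 0.05, and each SE was taken from the log2 difference and its F statistic. The identical columns were left out, which leaves 5 residual degrees of freedom; the common dispersion of 0.00229 equals a spread of 4.78% between replicates. All 3 pairs of parent doxycycline libraries differed by about counting error. Against parent vehicle 2 and 3 these libraries gave a chi-square of 1.037 to 1.241 per degree of freedom, and against vehicle 1 of 4.3 to 4.9; since no pair of that group stood apart, all were kept as separate samples, and their spread may be technical.

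The alternatives were other tests (limma-voom 3.58.1, DESeq2 1.42.0), size factors by RLE, no filter, and a stricter filter (1 CPM in 5 libraries). Others were only the groups compared, the replicate number as a block, rows summed, and the shared library under either or both labels. A further fit had a transcript length trend removed (GENCODE M21 lengths for 97.9% of tested genes, loess span 0.4). Each library was also left out in turn, except the 1 TR/TO-Klf9 doxycycline library, without which that group would be empty. The steps were also run on simulated counts, with the same mean per gene in every group apart from planted changes. Those counts lacked the broad line difference of these data, and no result here rests on that run. Named pathway genes are, per list and comparison, up to 3 past the threshold with the largest change and at least 5 CPM. The genes, lists and motifs were chosen with earlier results of these data known. The line difference chose the 10 genes, so their line tests, planned under doxycycline, are not reported. Start windows are from RefSeq on GRCm38.p6 and were not matched to mm8.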

Additional observations from a re-analysis of the deposited data

Results flagged for a closer look

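Of the 10 genes, Spred2 was singled out because its doxycycline response differed between the lines in the test of that difference (log2 -0.37). The same test singled out 12 other genes of the pathway lists. Those with a lower response in TR/TO-Klf9 were Cbl (-1.49), Elk4 (-1.33), the scaffold Ksr1 (-0.85), the p38 kinase Mapk11 (-0.53), the ETS factor Elf4 (-0.42), the receptor Fgfrl1 (-0.41), the RAS inhibitor Nf1 (-0.38), Rasal2 (-0.35), the kinase Rps6ka2 (-0.33) and the adaptor Frs2 (-0.32). Those with a higher response were the p38 activator Map2k6 (0.69) and the phosphatase Dusp10 (0.51). All rest on the 1 TR/TO-Klf9 doxycycline library, and none was called with the library under both labels counted as TR/TO-Klf9 doxycycline. With the library under both labels counted as TR/TO-Klf9 vehicle, only the calls of Ksr1 and Rps6ka2 were lost. Removing the transcript length trend ended the calls of Nf1 (-0.03), Rasal2 (-0.05), Frs2 (-0.15), Rps6ka2 (-0.21), Elf4 (-0.26) and Dusp10 (0.49). Over the 19 alternatives Rps6ka2 was called in 6, and Rasal2 and Dusp10 in 8 each.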

How the results depend on the processing

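Calls for doxycycline in TR/TO-Klf9, 2410 genes in the reported fit, were 1319 with DESeq2, 73 with only the groups compared, 1381 with the replicate block, 1450 with the length trend removed, and 0 with the shared library as doxycycline or under both labels by edgeR (2044 and 1480 genes at an unadjusted p under 0.05); leaving out 1 library gave 1890 to 3800, the highest without TR/TO-Klf9 vehicle 2. The difference of responses, 1309 genes, gave 716 with DESeq2, 607 with the replicate block, 576 with the length trend removed, and by edgeR 0 and 0 with the shared library as doxycycline or under both labels (1073 and 654 at an unadjusted p under 0.05). Leaving out 1 library gave 571 to 2910: 714 without parent vehicle 3, 621, 632 and 571 without parent doxycycline 1, 2 and 3, 2046 and 2910 without TR/TO-Klf9 vehicle 1 and 2. The cause was not tested. With the shared library as vehicle, calls for doxycycline in TR/TO-Klf9 and for the difference of responses stayed within 1.5 times of the reported fit. Calls for both line comparisons stayed within 1.5 times, and the parent comparison gave 0 throughout.

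After removal of group means, same-numbered samples correlated at -0.081 to 0.019, and differently numbered ones at -0.079 to 0.081. With so few libraries per group, and TR/TO-Klf9 doxycycline not included, these values cannot tell whether the replicate numbers pair samples. With the replicate block the calls of Dusp4 after doxycycline (-0.44, adjusted p = 0.0544) and of the Spred2 difference (-0.39, adjusted p = 0.0518) were lost. Values that turned sign were short of a call or untested: for doxycycline in TR/TO-Klf9, Etv5 -0.06 with the replicate block and -0.03 with the shared library as vehicle, and Spry4 -0.03 with it as doxycycline; for the difference, Etv5 0.01 with the length trend removed and 0.06 with the shared library as doxycycline; and Spred1 between lines under doxycycline, -0.04 with it as doxycycline or under both labels. On leaving out 1 library, Etv5 and Dusp6 in TR/TO-Klf9 ranged from -0.14 to 0.22 and 0 to 0.21, the Etv5 difference from -0.19 to 0.17, and in parent Dusp4 -0.08 to 0, Dusp5 -0.03 to 0.09, Spred2 -0.01 to 0.03 and Etv5 -0.04 to 0.19. Over the named genes and all alternatives, 2243 values were counted as unchanged. These stayed called, stayed uncalled or, for the untested line differences of the 10 genes, moved by no more than 1 SD. Of the others, 218 lost a call, 11 gained one, 23 of the untested values moved further and 20 changed sign. Values with no adjusted p from DESeq2 were left out. Spry1 rests on 26 to 66 counts per library. Only the groups compared could not be fitted for the difference.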
